A study of Homo sapiens with 43 samples.

Results

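A set of 10 genes of the amino acid and endoplasmic reticulum (ER) stress responses were followed through a series of RNA sequencing libraries from human cell lines. They were the transcription factor genes ATF4 and DDIT3, the amino acid synthesis genes ASNS, PSAT1 and PHGDH, the stress-induced genes TRIB3 and CHAC1, and the ER genes HSPA5, DNAJB9 and HERPUD1. The members were named in advance and found by Ensembl identifier, which gave 10 genes of 58780 in the files, each matched by 1 identifier. No measured value entered their choice as a rule, although results of these data were already known when they were chosen.

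When amino acids run short or unfolded proteins build up in the ER, kinases such as PERK (gene EIF2AK3) and GCN2 (gene EIF2AK4) slow protein synthesis and raise translation of ATF4, which then switches on genes of amino acid synthesis, amino acid uptake and transfer RNA charging. In the ER, the sensors PERK, IRE1 (gene ERN1) and ATF6 make up the unfolded protein response, in which XBP1 and ATF6 raise chaperones and factors of ER-associated degradation. Plasma cells, which arise from B cells, and hepatocytes secrete large amounts of protein and depend on the unfolded protein response for it. ATF4 is controlled largely at translation, and only RNA was measured here.

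The libraries numbered 43 in 22 groups, 39 from GM12878, a B lymphoblastoid line transformed by Epstein-Barr virus, and 4 from HepG2, a hepatocellular carcinoma line. The GM12878 experiment called panel exposed cells for 6 h to DMSO, phosphate-buffered saline (PBS), 500 nM of the glucocorticoid dexamethasone (Dex), 100 ng/mL of interferon gamma (IFNg), 25 ng/mL of tumour necrosis factor alpha (TNF), 50 U/mL of interleukin 2 (IL2), 10 ng/mL of bacterial lipopolysaccharide (LPS) or 500 nM of doxorubicin (Dox). In the other, the pretreatment experiment, DMSO or 10 µM BRM014 was given 30 min before vehicle, IFNg (100 ng/mL) or Dex (500 nM), and cells were taken 1 h or 6 h after that. BRM014 is an inhibitor of SMARCA2 and SMARCA4, the alternative ATPases of BAF chromatin remodelling complexes. The HepG2 cultures were kept for 24 h in 10 µM BRM014 or in DMSO. Every group had 2 libraries except Dox, which had 1, and GM12878 and HepG2 are each 1 line.

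Libraries of GM12878 held 12.9 to 22.9 M (megacounts) of deposited expected counts and those of HepG2 3.06 to 19.9 M, with HepG2 BRM014 replicate 2 as the shallowest. The B cell marker list summed to 10950 to 13560 TPM (transcript abundance scaled for length and depth) in GM12878, with 8 of 8 genes at a mean of at least 1 TPM, and the hepatocyte list to 13720 to 23960 TPM in HepG2, also with 8 of 8. In GM12878 the hepatocyte list summed to 0.88 to 2.91 TPM and the T cell list to 56.1 to 119 TPM. In HepG2 the B cell list summed to 70.5 to 202.6 TPM with MS4A1, PAX5 and CR2 at 0, and the myeloid list to 1289 to 2990 TPM, where CD14 and LYZ alone of 6 genes had a mean of at least 1 TPM and FCGR3A and S100A8 were at 0. Values below are CPM, read counts scaled for library size and composition, and fold changes are log2 values ± SE. They are relative to the other RNA of a library, and in such bulk samples fewer cells of a type and less RNA per cell cannot be told apart. Whether replicates came from different cultures is not in the labels, so p-values measure only the spread between these libraries, which may be technical. A gene was called, and is said to have risen or fallen, when its adjusted p (Benjamini-Hochberg, all genes tested) was under 0.05.

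Promoter sequences are shown for the members whose start region holds a known stress element, and for PSAT1, which moved in the same direction as ASNS. They are RefSeq sequences on GRCh38.p14, and each window searched runs from 250 bases before to 50 after a RefSeq start. All 10 members matched, with 15 windows in all, since some have several starts. RefSeq starts can differ from the outer ends of the GENCODE 44 genes given below: the starts used lie 134 bases inside the gene for ASNS, 509 for CHAC1 and 39 for HSPA5, and at its end for HERPUD1 and PSAT1. The composite element bound by ATF4 with C/EBP proteins was searched as TGATGNAA on both strands, and is in capitals below for ASNS (68 to 61 bases before the RefSeq start), CHAC1 (209 to 202 bases before, in reverse complement) and HERPUD1 (176 to 169 bases before, in reverse complement). These letters occur in 3.62% of the 35116 windows. The ASNS and CHAC1 stretches lie within annotated exons and are cut to 30 bases, and the other 3 lie outside exons.
ASNS, chr7:97872457-97872486, minus strand: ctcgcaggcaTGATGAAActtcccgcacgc
CHAC1, chr15:40953251-40953280, plus strand: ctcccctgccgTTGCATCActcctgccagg
HERPUD1, chr16:56931942-56932051, plus strand: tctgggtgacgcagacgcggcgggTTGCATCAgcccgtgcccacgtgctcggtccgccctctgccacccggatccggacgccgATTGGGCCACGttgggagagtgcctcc
HSPA5, chr9:125241384-125241483, minus strand: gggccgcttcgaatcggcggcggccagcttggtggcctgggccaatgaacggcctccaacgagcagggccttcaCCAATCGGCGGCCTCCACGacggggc
PSAT1, chr9:78297015-78297124, plus strand: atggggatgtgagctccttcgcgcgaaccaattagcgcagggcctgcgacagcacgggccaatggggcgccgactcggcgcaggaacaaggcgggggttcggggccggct

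The second capital stretch of HERPUD1, 117 to 107 bases before the start, is the ER stress response element II, searched as ATTGG, any base, then CCACG, and found in 0.0541% of windows. The capitals of HSPA5, 66 to 48 bases before the start, are the ER stress response element, searched as CCAAT, 9 bases of any kind, then CCACG, and found in 0.0769% of windows. HERPUD1 was thus the 1 member whose window held both an amino acid response element and an ER stress element. The unfolded protein response element TGACGTGG, present in 0.729% of windows, matched no member. The letters searched are not in the PSAT1 window, and a match or its absence is a description of these letters, not of binding.

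Levels were compared between genes per length, by the deposited TPM, in the 4 panel vehicle libraries. HSPA5, the ER chaperone BiP, was highest at 457 ± 18.2 TPM (SD, n = 4). ATF4 at 296 ± 8.88 TPM and HERPUD1 at 267 ± 22.7 TPM followed, and their libraries overlapped. ASNS stood at 41.5 ± 1.28 TPM. DNAJB9 at 25.4 ± 4.19 TPM and DDIT3 at 21.1 ± 2.20 TPM also overlapped, as did PSAT1 (13.9 ± 1.00 TPM) with TRIB3 (12.2 ± 1.05 TPM) and TRIB3 with PHGDH (9.70 ± 1.26 TPM). CHAC1 was lowest at 4.29 ± 0.813 TPM.

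HepG2 cells given DMSO had another balance among the members. PSAT1 stood at 151.9 ± 9.70 TPM (SD, n = 2) and PHGDH at 108.3 ± 2.34 TPM, both far above every GM12878 library, whose highest values were 26.4 and 15.7 TPM. TRIB3 was at 58.8 ± 4.05 TPM against at most 18.7 TPM in GM12878. ASNS at 47.1 ± 2.31 TPM lay within the GM12878 range of 36.2 to 77.99 TPM. CHAC1 had 0 counts in all 4 HepG2 libraries, which allows up to 0.982 CPM in the shallowest and 0.151 CPM in the deepest (3 counts of the library's total, counting error only), while GM12878 libraries held 2.95 to 6.27 CPM. Line, time and experiment differ together in this contrast, so no test was made.

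The comparison of BRM014 with DMSO asks how these genes depend on BAF activity. After 6 h in vehicle-treated GM12878 cells, 2 members rose (ASNS and PSAT1) and 6 fell (ATF4, PHGDH, TRIB3, HSPA5, DNAJB9 and HERPUD1), with n = 2 libraries per group. Over all 15183 genes tested, 18.4% rose and 20.1% fell, 38.5% in all. The same contrast in IFNg-treated and in Dex-treated cells uses other libraries throughout. There 2 members rose and 5 fell in each set, against 15.0% and 18.7% of all genes with IFNg (33.7% in all) and 17.1% and 20.6% with Dex (37.7% in all). The members' median log2 fold change was -0.165 with vehicle, -0.241 with IFNg and -0.111 with Dex, and that of all genes was 0.01 in each set. ASNS and PSAT1 were called higher and ATF4, TRIB3, DNAJB9 and HERPUD1 lower in all 3 sets, a rule met by 21.2% of all genes, 8.81% higher and 12.4% lower.

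**Figure D1:**
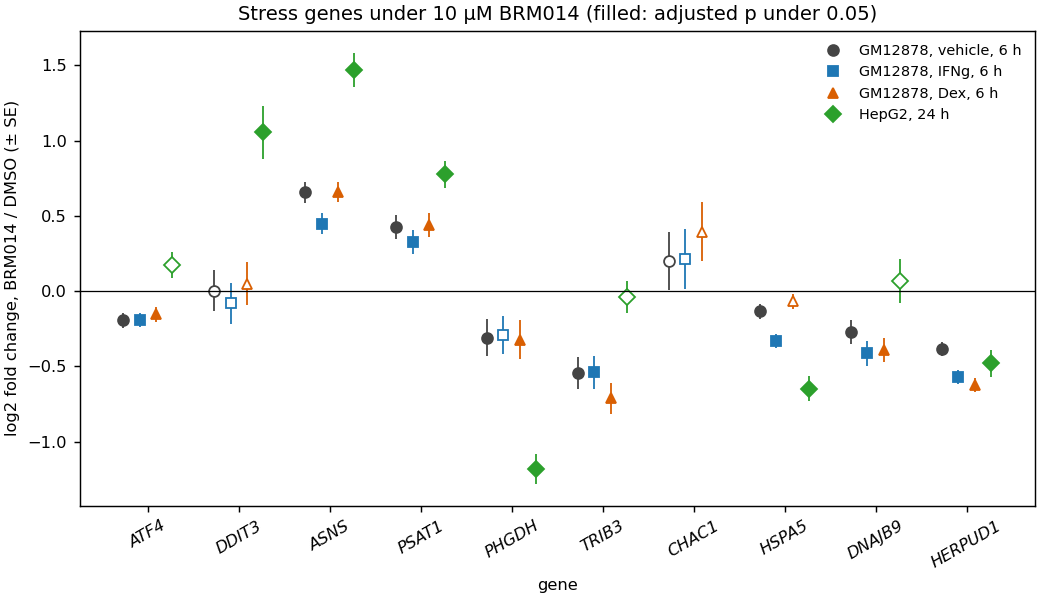
Log2 fold change ± SE of BRM014 over DMSO (y axis) for each gene (x axis) in GM12878 at 6 h with vehicle, IFNg or Dex and in HepG2 at 24 h, with filled symbols for adjusted p under 0.05 and CHAC1 not tested in HepG2. ASNS and PSAT1 lie above 0 in all 4 sets, from 0.45 to 1.47 and from 0.33 to 0.78, and HERPUD1 lies below 0 in all 4, from -0.38 to -0.62.

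ATF4 (ENSG00000128272.14, chromosome 22, 39519695 to 39522683) encodes the transcription factor at the centre of the integrated stress response. With vehicle for 6 h its RNA stood at 288 and 283 CPM after DMSO and at 252 and 247 CPM after BRM014. With IFNg the values were 281 and 297 against 249 and 258 CPM, and with Dex 304 and 300.1 against 274 and 269 CPM. The BRM014 libraries were lower than the DMSO libraries in each set, without overlap. The fall was small, by 0.19 ± 0.0485 with vehicle (adjusted p = 0.00182), 0.19 ± 0.0488 with IFNg and 0.15 ± 0.0485 with Dex. By deposited TPM the group means lay closer together, at 285.7 after DMSO and 263.9 after BRM014 with vehicle. They were 282.5 and 267.5 TPM with IFNg and 296.1 and 283.2 TPM with Dex, so the size of the fall depended on the scaling. The call was lost with IFNg when DMSO replicate 2 was left out (adjusted p = 0.0640), and with Dex without DMSO replicate 1 (0.0964) or BRM014 replicate 2 (0.101).

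DDIT3 (ENSG00000175197.12, chromosome 12, 57516588 to 57521737), which encodes the pro-apoptotic factor CHOP, did not pass the test at 6 h in any set, with log2 fold changes of 0.00 ± 0.136, -0.08 ± 0.139 and 0.05 ± 0.143. It lay between 8.17 and 14.2 CPM in all 39 GM12878 libraries. At 1 h with vehicle it stood at 9.40 and 9.15 CPM after DMSO and at 14.2 and 12.5 CPM after BRM014, so that the groups did not overlap. DDIT3 rose there by 0.53 ± 0.134 (adjusted p = 0.0285). The call was lost with DESeq2 (0.203) and without DMSO replicate 1 (0.160), DMSO replicate 2 (0.264) or BRM014 replicate 1 (0.324), and with IFNg or Dex at 1 h the gene did not pass the test. DDIT3 overlaps MARS1 and MBD6 on the opposite strand, and MARS1 itself was at -0.02 ± 0.0446 at 1 h and did not pass the test. No value is given here for MBD6, and the part of either gene in the DDIT3 value was not tested.

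ASNS (ENSG00000070669.16, chromosome 7, 97851677 to 97872542) encodes asparagine synthetase, a standard readout of ATF4 activity, and had the largest rise of the members. With vehicle at 6 h it stood at 53.1 and 56.6 CPM after DMSO and at 87.0 and 86.3 CPM after BRM014. With Dex the values were 56.3 and 55.0 against 90.4 and 85.6 CPM, and with IFNg 69.2 and 57.2 against 85.5 and 86.3 CPM. All 6 BRM014 libraries lay above all 6 DMSO libraries, of which the first IFNg library was the highest. The rise was 1.58-fold with vehicle (0.66 ± 0.0684 on the log2 scale, adjusted p = 3.75e-09), 1.58-fold with Dex (0.66 ± 0.0691) and 1.36-fold with IFNg (0.45 ± 0.0691). The difference between the IFNg and vehicle sets was -0.21 ± 0.0972 and did not pass the test (adjusted p = 0.595). ENSG00000284707, which overlaps ASNS on the same strand and could share its reads, held 2.27 to 4.32 CPM after DMSO and 2.50 to 4.73 CPM after BRM014 at 6 h.

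PSAT1 (ENSG00000135069.13, chromosome 9, 78297125 to 78330093) encodes phosphoserine aminotransferase, an enzyme of serine synthesis. It stood at 27.4 to 30.9 CPM in the 6 DMSO libraries of 6 h and at 37.1 to 40.4 CPM in the 6 BRM014 libraries, again with no overlap. The rise was 0.43 ± 0.0783 with vehicle (1.34-fold, adjusted p = 5.42e-05), 0.33 ± 0.0799 with IFNg and 0.44 ± 0.079 with Dex. PHGDH (ENSG00000092621.12, chromosome 1, 119648411 to 119744218), the enzyme that opens the same pathway just upstream, went the other way. It stood at 14.96 and 12.3 CPM after DMSO and at 10.4 and 11.3 CPM after BRM014 with vehicle, and fell by 0.31 ± 0.124 (adjusted p = 0.0490). With Dex it fell by 0.32 ± 0.129 (adjusted p = 0.0490), and with IFNg the value was -0.29 ± 0.129 (adjusted p = 0.0818). Both PHGDH calls were lost with DESeq2 (0.160 and 0.148), without a filter on low counts (0.0720 and 0.0624) and when single libraries were left out, the vehicle value being -0.17 (0.401) without DMSO replicate 1.

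TRIB3 (ENSG00000101255.10, chromosome 20, 362835 to 397559) encodes a pseudokinase that is induced by ATF4 and DDIT3 and restrains them. It stood at 26.2 and 23.3 CPM after DMSO and at 17.6 and 16.3 CPM after BRM014 with vehicle at 6 h. With IFNg it stood at 19.98 and 24.8 against 14.3 and 16.9 CPM, and with Dex at 29.6 and 31.6 against 18.4 and 18.98 CPM. BRM014 libraries were lower in each set without overlap. TRIB3 fell by 0.55 ± 0.105 with vehicle (adjusted p = 0.000104), by 0.54 ± 0.11 with IFNg and by 0.71 ± 0.103 with Dex, a 1.64-fold fall. CHAC1 (ENSG00000128965.12, chromosome 15, 40952962 to 40956512), whose product breaks down glutathione, was the lowest member and did not pass the test in any set. Its 6 h libraries held 3.45 to 4.11 CPM after DMSO and 4.14 to 4.75 CPM after BRM014, and the log2 fold changes were 0.20 ± 0.194, 0.21 ± 0.198 and 0.39 ± 0.197.

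The ER genes fell or did not pass the test. HERPUD1 (ENSG00000051108.14, chromosome 16, 56932142 to 56944864), a membrane protein of ER-associated degradation, stood at 263 and 258 CPM after DMSO and at 202 and 198 CPM after BRM014 with vehicle at 6 h. With IFNg it stood at 268 and 274 against 189 and 176 CPM, and with Dex at 290.8 CPM or more against 195 and 189 CPM. All 6 BRM014 libraries lay below all 6 DMSO libraries. HERPUD1 fell by 0.38 ± 0.0457 with vehicle (adjusted p = 5.29e-08), by 0.57 ± 0.0462 with IFNg (2.25e-11) and by 0.62 ± 0.0458 with Dex (1.69e-12), the last a 1.54-fold fall. The overlapping same-strand genes ENSG00000261270 and ENSG00000261114 held at most 1.38 and 2.22 CPM in these 12 libraries.

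DNAJB9 (ENSG00000128590.4, chromosome 7, 108569867 to 108574850), which encodes the BiP cochaperone ERdj4 and is a target of XBP1, stood at 41.2 to 50.2 CPM in the 6 DMSO libraries and at 35.6 to 37.3 CPM in the 6 BRM014 libraries of 6 h. It fell by 0.27 ± 0.0809 with vehicle (adjusted p = 0.00810), 0.41 ± 0.082 with IFNg and 0.39 ± 0.0809 with Dex. The vehicle call was lost without DMSO replicate 2, with -0.20 (adjusted p = 0.143). HSPA5 (ENSG00000044574.7, chromosome 9, 125234853 to 125241382) stood with IFNg at 1494 and 1555 CPM after DMSO and at 1194 and 1230 CPM after BRM014, a fall of 0.33 ± 0.0488 (adjusted p = 2.60e-06). With vehicle it stood at 1367 and 1382 against 1223 and 1281 CPM, a fall of 0.13 ± 0.0487 (adjusted p = 0.0279) that was lost when only the compared groups were fitted (0.114) and without DMSO replicate 1 (0.0639), DMSO replicate 2 (0.106) or BRM014 replicate 1 (0.257). With Dex the value was -0.07 ± 0.0488 and did not pass the test.

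**Figure D2:**
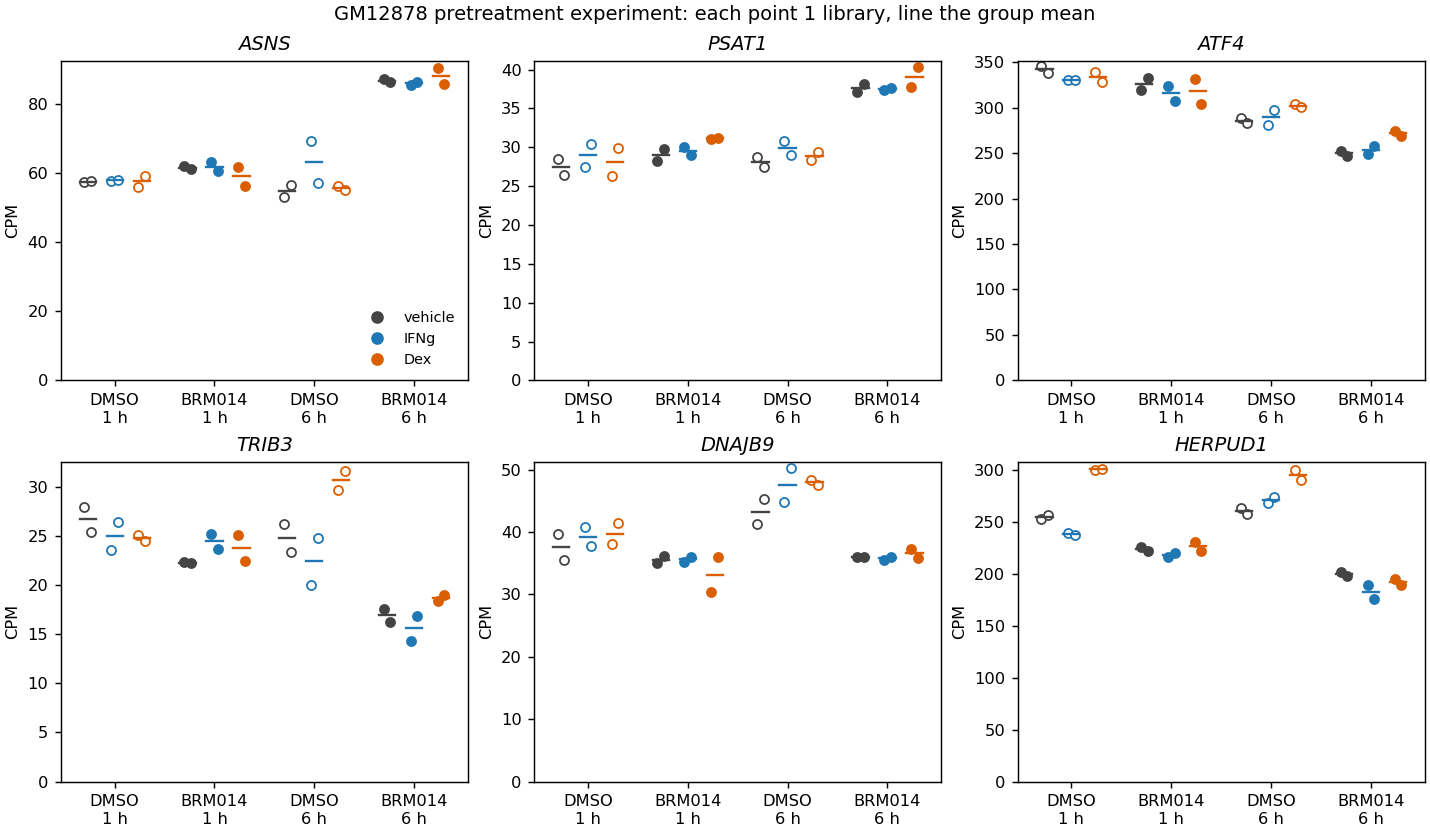
CPM (y axis) of ASNS, PSAT1, ATF4, TRIB3, DNAJB9 and HERPUD1 in the 24 pretreatment libraries by pretreatment and time (x axis), each point 1 library, open for DMSO and filled for BRM014, with a line at each group mean and colours for vehicle, IFNg and Dex. ASNS is at 85.5 to 90.4 CPM in the 6 BRM014 libraries of 6 h and at 53.1 to 69.2 CPM in the other 18, and HERPUD1 is at 176 to 202 CPM in those 6 libraries and above them in the other 18.

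At 1 h after stimulation fewer genes differed. With vehicle 2.05% of all genes were called (0.599% higher, 1.46% lower), among them HERPUD1 and DDIT3, and the 10 members had a median of 0.03. HERPUD1 stood at 253 and 257 CPM after DMSO and at 226 and 222 CPM after BRM014, and fell by 0.19 ± 0.0456 (adjusted p = 0.0173). That call was lost without any 1 of the 4 libraries (0.0768 to 0.233), without a filter (0.0683) and with only the compared groups (0.0896). With Dex, where 1.91% of all genes were called (1.33% lower), HERPUD1 alone among the members passed, at 299.9 and 301 against 231 and 222 CPM, a fall of 0.41 ± 0.0454 (adjusted p = 2.32e-07). With IFNg, where 2.2% were called, edgeR called 0 members, 1 had an unadjusted p under 0.05 and DESeq2 called 0.

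The change from 1 h to 6 h was then compared between the arms. In vehicle cells given DMSO, ATF4 was the 1 member called (1.43% of all genes, 0.31% lower), lower at 6 h by 0.26 ± 0.0481 (adjusted p = 0.00347), from 346 and 338 to 288 and 283 CPM. It was not called without DMSO replicate 1 of 1 h (0.0833). In vehicle cells given BRM014 6 members were called (36.9% of all genes, 18.1% higher and 18.8% lower): ASNS rose by 0.50 ± 0.0683 and PSAT1 by 0.37 ± 0.0788, while ATF4, DDIT3, TRIB3 and HERPUD1 fell by 0.38, 0.41, 0.40 and 0.16. Without BRM014 replicate 2 of 6 h, DDIT3 (adjusted p = 0.0571), TRIB3 (0.0561) and HERPUD1 (0.0544) were not called, and DDIT3 was also lost without BRM014 replicate 1 of 1 h (0.152) or of 6 h (0.0846) and with DESeq2 (0.0754). The difference between the BRM014 effects at 6 h and 1 h was itself called for 3 members (18.7% of all genes, 7.34% higher and 11.4% lower). For ASNS it was 0.56 ± 0.098 (adjusted p = 8.34e-05), and the call stood in every alternative run. For PSAT1 (0.34 ± 0.113, 0.0312) and HERPUD1 (-0.19 ± 0.0645, 0.0331) it was lost without a filter (0.0822 and 0.0868), with only the compared groups (0.0562 and 0.0837) and without several single libraries.

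Other genes of the same pathways were described by lists that hold none of the 10 members. Among 13 genes of amino acid synthesis, 4 rose and 3 fell under BRM014 with vehicle at 6 h, with a median of 0.06 beside 0.01 for all genes. CTH, which makes cysteine, rose by 0.82 ± 0.13, and the mitochondrial folate and serine enzymes ALDH1L2 and SHMT2 fell by 1.10 ± 0.0864 and 0.34 ± 0.0502. Of 10 amino acid transporters 1 rose, SLC7A5 (0.58 ± 0.0571), the light chain of the leucine carrier, and 4 fell, among them the neutral amino acid carriers SLC1A5 (-0.50 ± 0.0591) and SLC38A2 (-0.52 ± 0.0717). Of 13 genes of transfer RNA charging and export 3 rose and 2 fell, with EPRS1 at 0.28 ± 0.0475, LARS1 at 0.27 ± 0.056 and WARS1 at -0.86 ± 0.0976. Genes of these lists thus moved in both directions, as did all genes in this contrast, of which 18.4% rose and 20.1% fell.

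Among 12 tested stress factors and regulators 1 rose and 7 fell, and the median was -0.34. In this contrast 18.4% of all genes rose and 20.1% fell, against which the counts of these lists are to be read. PPP1R15A, the phosphatase subunit that ends the stress response, fell by 0.97 ± 0.0708, and the factors ATF5 and ATF3 fell by 0.91 ± 0.072 and 1.04 ± 0.166. Of 12 sensors and their partners 2 rose and 4 fell. EIF2AK2, the kinase PKR, fell by 0.71 ± 0.054 and ERN1, the sensor IRE1, by 0.85 ± 0.0992, while XBP1 rose by 0.26 ± 0.0553. Counts per gene do not separate the spliced from the unspliced form of XBP1. Of 20 ER chaperones and folding enzymes 2 rose and 9 fell, with TXNDC5 (-1.003 ± 0.0519), HYOU1 (-0.40 ± 0.048) and CANX (-0.39 ± 0.0479) first by adjusted p. Of 17 genes of ER-associated degradation 2 rose and 5 fell, with the ubiquitin ligase SYVN1 at -1.02 ± 0.0587 and the conjugating enzyme UBE2J1 at -0.99 ± 0.0659. With IFNg 1 stress factor rose and 7 fell and 2 chaperones rose and 11 fell, where 15.0% of all genes rose and 18.7% fell. With Dex 0 stress factors rose and 8 fell and 5 chaperones rose and 8 fell, where 17.1% of all genes rose and 20.6% fell.

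Dex was compared with vehicle to ask how the glucocorticoid acts on these genes. In the panel 3 members were called: HSPA5 fell, and TRIB3 and HERPUD1 rose (25.7% of all genes were called, 13.0% higher and 12.7% lower). HSPA5 stood at 1454 and 1386 CPM with DMSO, 1331 and 1410 with PBS, and 1102 and 1195 with Dex, a fall of 0.28 ± 0.0391 (adjusted p = 6.92e-07). TRIB3 stood at 18.8 to 23.4 CPM in the 4 vehicle libraries and at 26.2 and 26.5 CPM with Dex, a rise of 0.33 ± 0.0799 (adjusted p = 0.00201), and HERPUD1 at 273 to 296 CPM against 297 and 315 CPM, a rise of 0.11 ± 0.0377 (adjusted p = 0.0223). Neither rise was called against PBS alone (0.0627 for TRIB3 and 0.355 for HERPUD1), and that of HERPUD1 was lost without a filter (0.0818) and without Dex replicate 2 (0.07, 0.335) or DMSO replicate 2 (0.0517).

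The pretreatment experiment holds the same contrast in other libraries. After DMSO for 6 h HSPA5, TRIB3 and HERPUD1 were called, beside 15.6% of all genes (8.06% higher, 7.53% lower). HSPA5 stood at 1367 and 1382 CPM with vehicle and at 1159 and 1186 CPM with Dex, and fell by 0.23 ± 0.0488 (adjusted p = 0.000733). HERPUD1 rose by 0.18 ± 0.0452 (adjusted p = 0.00396) and TRIB3 by 0.31 ± 0.0988 (adjusted p = 0.0274). The TRIB3 call was lost with DESeq2 (0.113) and without vehicle replicate 2 (0.314), Dex replicate 1 (0.0650) or Dex replicate 2 (0.179), and that of HERPUD1 without vehicle replicate 2 (0.0505) or Dex replicate 1 (0.0854). At 1 h HERPUD1 alone was called (0.606% of all genes, 0.362% higher), at 253 and 257 CPM with vehicle and at 299.9 and 301 CPM with Dex, a rise of 0.24 ± 0.0452 (adjusted p = 0.00261). Without vehicle replicate 1 (0.113) or either Dex library (0.0522 and 0.0800) it was not called.

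With BRM014 before Dex, HERPUD1 was not called at either time. At 1 h edgeR called 0 members there beside 0.277% of all genes, 2 had an unadjusted p under 0.05 and DESeq2 called 0. At 6 h it stood at 202 and 198 CPM with vehicle and at 195 and 189 CPM with Dex, and at 1 h at 226 and 222 against 231 and 222 CPM. The difference between the Dex effects in the BRM014 and DMSO arms at 6 h was -0.24 ± 0.0646 for HERPUD1 (adjusted p = 0.0340), the 1 member called among 2.76% of all genes (1.72% lower). That call was lost without a filter (0.0849), with only the compared groups (0.0626) and without 6 of the 8 libraries in turn (0.0568 to 0.212), being kept without DMSO vehicle replicate 1 or DMSO Dex replicate 2. At 1 h the difference was -0.22 ± 0.0643 with an adjusted p of 0.741, where 0.119% of all genes were called, edgeR called 0 members, 2 had an unadjusted p under 0.05 and DESeq2 called 0. HSPA5 was the 1 member called for Dex in the BRM014 arm at 6 h (7.77% of all genes, 4.1% lower), with a fall of 0.16 ± 0.0488 (adjusted p = 0.0343). Leaving out any 1 of the 4 libraries ended that call (0.0598 to 0.292), and the difference between arms for HSPA5, 0.07 ± 0.0689, did not pass the test.

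**Figure D3:**
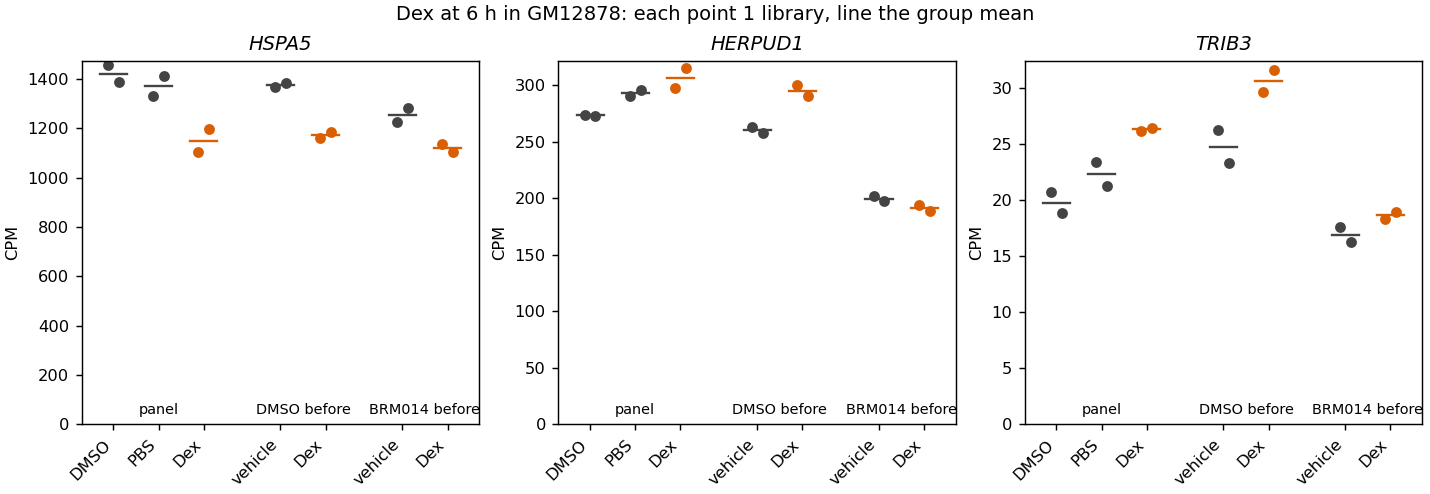
CPM (y axis) of HSPA5, HERPUD1 and TRIB3 at 6 h with vehicle (grey) or Dex (orange) in the panel, after DMSO and after BRM014 (x axis), each point 1 library and each line a group mean. HSPA5 is at 1102 to 1195 CPM in the 6 Dex libraries and at 1223 to 1454 CPM in the 8 vehicle libraries, while HERPUD1 is higher with Dex in the panel and after DMSO and at 189 and 195 CPM with Dex after BRM014.

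In the lists, where 13.0% of all genes rose and 12.7% fell, Dex in the panel raised 5 of 10 amino acid transporters and lowered 2, with SLC38A1 at 0.90 ± 0.0358, SLC38A2 at 0.96 ± 0.0391 and SLC7A5 at 0.49 ± 0.0467. After DMSO in the pretreatment experiment 8.06% of all genes rose and 7.53% fell with Dex at 6 h. There 5 transporters rose and 1 fell, with these carriers at 0.89, 0.87 and 0.68. Of the 13 genes of transfer RNA charging and export, 0 rose and 5 fell in each of these experiments. Among stress regulators DDIT4, an inhibitor of mTORC1, rose by 2.49 ± 0.0436 and JDP2, a Jun dimerization protein, by 1.01 ± 0.0714, while ATF5 fell by 0.50 ± 0.0421. Of 20 ER chaperones 2 rose and 7 fell in the panel, with PDIA4 (-0.26 ± 0.0359) and CALR (-0.21 ± 0.0362) lower beside HSPA5 and TXNDC5 higher (0.35 ± 0.035), and 1 rose and 3 fell after DMSO. The difference of Dex effects between arms at 6 h was called for 2.76% of all genes. Among the listed genes SLC7A5 (-0.58 ± 0.0799), SLC1A4 (0.40 ± 0.0718) and JDP2 (-0.95 ± 0.166) had the smallest adjusted p. Other listed genes were called too, among them EIF2AK4 (-0.40 ± 0.08945) and ATF3 (0.998 ± 0.238).

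IFNg raised 2 members in the panel, where 11.9% of all genes were called (7.11% higher). HSPA5 stood at 1551 and 1589 CPM, above the 4 vehicle libraries, and rose by 0.17 ± 0.0384 (adjusted p = 0.00179). DNAJB9 stood at 42.2 and 43.2 CPM against 34.97 to 38.9 CPM and rose by 0.22 ± 0.0645 (adjusted p = 0.0212). HSPA5 was not called without IFNg replicate 2 (0.0515), and DNAJB9 was not called with DESeq2 (0.0920), against DMSO alone (0.148), without either IFNg library (0.110 and 0.177) or without DMSO replicate 1 (0.0832). After DMSO in the pretreatment experiment HSPA5 was 0.15 ± 0.0487 higher at 6 h and was not called (adjusted p = 0.0621). There edgeR called 0 members beside 6.62% of all genes, 2 members had an unadjusted p under 0.05, and DESeq2 called 1. The difference of IFNg effects between the BRM014 and DMSO arms at 6 h was not called for any member (0.198% of all genes), 3 having an unadjusted p under 0.05 and DESeq2 calling 0. For HSPA5 that difference was -0.20 ± 0.0689 (adjusted p = 0.341). The other IFNg contrasts gave 0 members called by edgeR and 0 by DESeq2: after DMSO at 1 h (0.514% of all genes), after BRM014 at 1 h (0.105%) and at 6 h (1.77%), each with 1 member at an unadjusted p under 0.05, and for the difference between arms at 1 h (0.0659%), with 0.

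In the panel IFNg contrast 7.11% of all genes rose, and 750 of 15775 fell. Of 20 listed ER chaperones 4 rose and 0 fell. Among them PDIA3, a disulphide isomerase that also loads MHC class I molecules, was at 0.30 ± 0.0404 and PDIA6 at 0.21 ± 0.0364. Of 17 degradation genes 4 rose and 1 fell, with SELENOS at 0.40 ± 0.0567 and EDEM1 at 0.28 ± 0.036. WARS1, a transfer RNA synthetase known as an IFNg target, rose by 2.39 ± 0.0384. The difference of IFNg effects between the BRM014 and DMSO arms at 6 h was called for 0.198% of all genes. WARS1 (-1.30 ± 0.136, adjusted p = 0.000391) and SELENOS (-0.52 ± 0.107, adjusted p = 0.0209) were among them, and PDIA3, PDIA6 and EDEM1 were not.

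TNF, LPS and IL2 gave 0 members called by edgeR and 0 by DESeq2, beside 0.019%, 0.0% and 0.203% of all genes. With IL2 1 member, PSAT1, had an unadjusted p under 0.05, at 25.0 and 25.2 CPM against 20.4 to 23.3 CPM (0.18 ± 0.0756, adjusted p = 0.784), and with TNF and LPS 0 members did. DMSO against PBS also gave 0 members by both tools (0.437% of all genes), 1 having an unadjusted p under 0.05. That was HERPUD1, at 274 and 273 CPM with DMSO and at 290.5 and 296 CPM with PBS. Dox, a DNA-damaging agent, had 1 library and no test. In it HERPUD1 stood at 206 CPM (95% exact Poisson interval 200.2 to 213, counting error only) and all 4 vehicle libraries were higher. ATF4 (274 CPM), TRIB3 (18.8 CPM) and CHAC1 (3.76 CPM) also lay below all 4, while DNAJB9 (44.99), PSAT1 (27.9), ASNS (57.7), DDIT3 (13.4) and HSPA5 (1582 CPM) lay above all 4 and PHGDH (10.9 CPM) lay among them. For TRIB3, CHAC1 and DDIT3 the counting interval reached into the vehicle range, and of all genes 28.0% lay above and 28.3% below the 4 vehicle libraries. The largest log2 ratio of CPM plus 1 was -0.46, for HERPUD1, so no member passed 2-fold, as 0.406% of genes did upward and 0.203% downward.

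In HepG2 cells BRM014 was given for 24 h, and the contrast with DMSO asks how the genes depend on BAF activity in a liver-derived line. ASNS, DDIT3 and PSAT1 rose and PHGDH, HSPA5 and HERPUD1 fell, 6 of the 9 members tested, beside 42.1% of all 13350 genes (19.3% higher, 22.7% lower). ASNS stood at 64.1 and 53.97 CPM after DMSO and at 174 and 147.5 CPM after BRM014. The rise was 2.77-fold (1.47 ± 0.113, adjusted p = 1.95e-08). PSAT1 stood at 224 and 230.4 CPM against 411.5 and 365 CPM, a rise of 0.78 ± 0.0899 (adjusted p = 2.79e-06). DDIT3 stood at 11.6 and 8.91 CPM against 20.9 and 21.0 CPM, a rise of 1.05 ± 0.174 (adjusted p = 0.000121). MARS1, which overlaps DDIT3 on the opposite strand, rose by 0.83 ± 0.0884, and its part in the DDIT3 value was not tested.

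PHGDH showed the largest fall, from 146.3 and 144 CPM to 62.2 and 67.2 CPM, 2.27-fold (-1.18 ± 0.0986, adjusted p = 5.57e-08). It thus fell while PSAT1, its neighbour in serine synthesis, rose. HSPA5 stood at 1746 to 1764 CPM after DMSO and at 1089 to 1151 CPM after BRM014 and fell by 0.65 ± 0.0833 (adjusted p = 9.48e-06). HERPUD1 fell from 176.5 and 167 to 123 and 123 CPM, by 0.48 ± 0.0905 (adjusted p = 0.000421). ATF4 (0.18 ± 0.0872, adjusted p = 0.119), DNAJB9 (0.07 ± 0.144) and TRIB3 (-0.04 ± 0.109) did not pass the test. All 6 calls were kept when the shallow BRM014 replicate 2 or any other library was left out, although the remaining library of a group is then taken to vary like the other group.

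**Figure D4:**
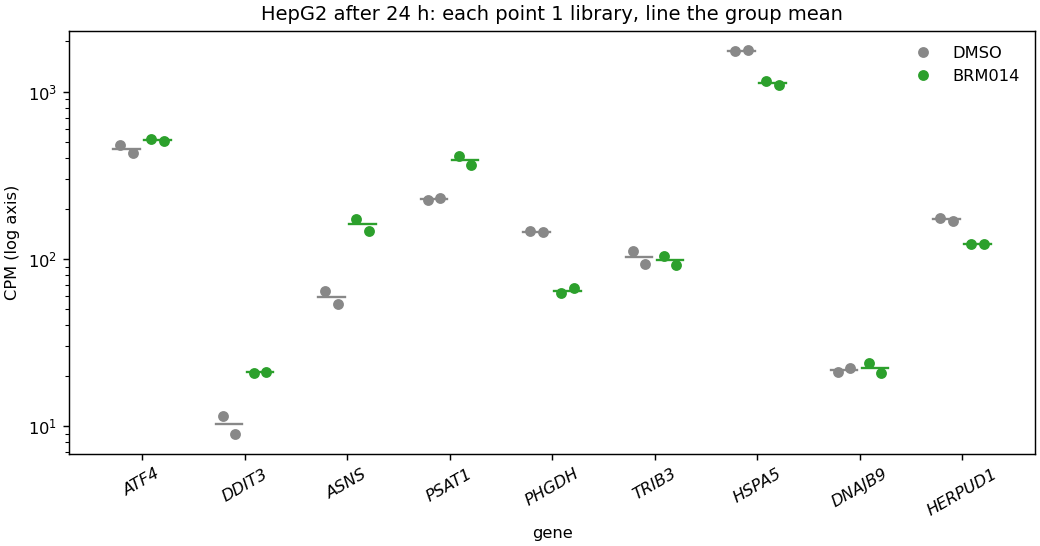
CPM on a log axis (y axis) of 9 members (x axis) in HepG2 after 24 h with DMSO (grey) or BRM014 (green), each point 1 library and each line a group mean. ASNS, PSAT1 and DDIT3 were called higher after BRM014 and PHGDH, HSPA5 and HERPUD1 lower, beside 42.1% of all genes called. ATF4, DNAJB9 and TRIB3 did not pass the test.

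Among the lists in HepG2, where 19.3% of all genes rose and 22.7% fell, 10 of 13 genes of transfer RNA charging and export rose and 0 fell, with a median of 0.48 beside -0.01 for all genes, MARS1 at 0.83 ± 0.0884 and IARS1 at 0.72 ± 0.0896. Of 13 amino acid synthesis genes 3 rose and 6 fell, with GPT2, ALDH18A1 and PCK2 lower by 1.31 ± 0.0901, 1.08 ± 0.0894 and 1.09 ± 0.0923, and of 10 transporters 5 rose and 3 fell, with the cystine carrier SLC7A11 at 1.20 ± 0.15 and SLC43A1 at -1.62 ± 0.126. Among 13 stress factors 4 rose and 4 fell, and ATF5 rose by 1.42 ± 0.108. Of 12 sensors and partners 5 rose and 1 fell (0 fell without BRM014 replicate 2), with ATF6 at 0.73 ± 0.101 and XBP1 at 0.56 ± 0.0892. Of 20 chaperones 2 rose and 12 fell, with a median of -0.38, PPIB at -0.92 ± 0.0916, CANX at -0.96 ± 0.0974 and MANF at -0.90 ± 0.109. Of 16 degradation genes 3 rose and 3 fell. The lists were not compared between the lines by a test.

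**Figure D5:**
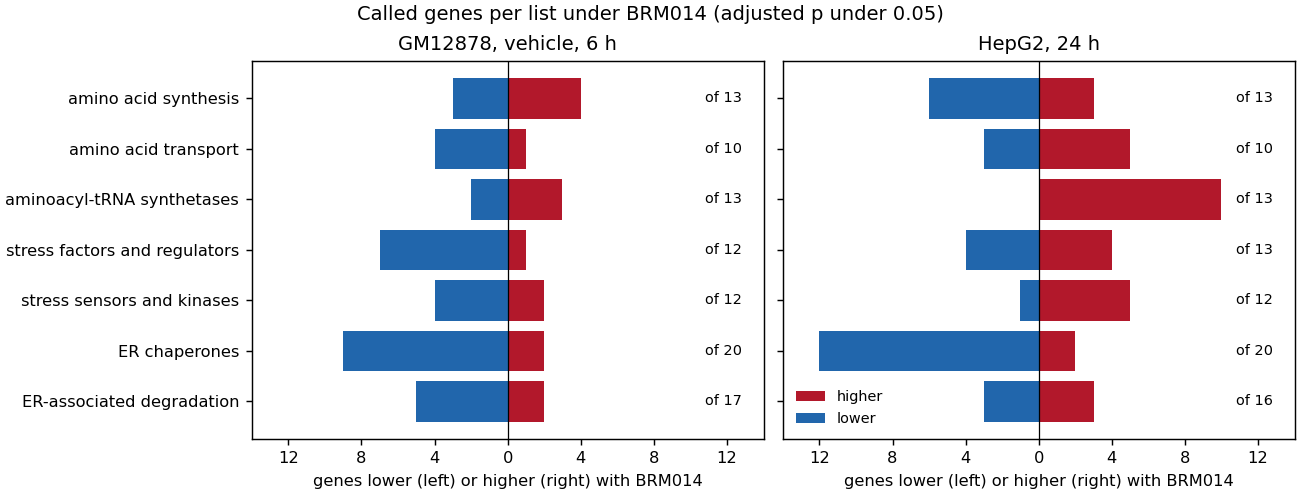
Number of called genes per list (x axis, lower to the left and higher to the right) for 7 lists (y axis) under BRM014 in GM12878 with vehicle at 6 h and in HepG2 at 24 h, with the number tested at the right. ER chaperones count 2 higher and 9 lower in GM12878 and 2 higher and 12 lower in HepG2. Genes of transfer RNA charging and export count 3 higher and 2 lower in GM12878 and 10 higher in HepG2. Of all genes 18.4% were called higher and 20.1% lower in GM12878, and 19.3% and 22.7% in HepG2.

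Over the 19 GM12878 groups with 2 libraries, the members spanned less than 2-fold. The ratio of the highest to the lowest group mean was 1.37 for ATF4, 1.38 for PHGDH, 1.40 for HSPA5, 1.45 for DNAJB9, 1.5 for DDIT3, 1.65 for CHAC1, 1.68 for HERPUD1, 1.79 for PSAT1, 1.85 for ASNS and 1.97 for TRIB3. For HERPUD1 9 of 18 pairs of neighbouring groups did not overlap, from 182 CPM with BRM014 and IFNg at 6 h to 306 CPM with Dex in the panel. Its 6 lowest groups were the 6 with BRM014. For ASNS 3 of 18 neighbours did not overlap, and its 3 highest groups were the BRM014 groups of 6 h. For CHAC1 0 of 18 neighbours were apart. Over 10439 genes of at least 5 CPM on average the median was 2 of 18, 0.632% had 9 or more and 40.7% had 3 or more. The panel and pretreatment experiments differ in more than their stimuli, since vehicle groups at 6 h held 21.8 and 22.4 CPM of PSAT1 in the panel and 28.1 CPM after DMSO and vehicle in the pretreatment experiment.

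The genes most like ASNS and HSPA5 across these 19 groups were those with the smallest root mean square difference of log2 profiles, each centred within its experiment, among 10439 genes. For ASNS they were YIF1A (0.0550), GMPPA (0.0556) and FAM162A (0.0557), where the median gene lay at 0.221. For HSPA5 they were YWHAG (0.0322), XPO6 (0.0386) and PAPOLA (0.0439), with a median of 0.178. Under BRM014 with vehicle at 6 h YIF1A rose by 0.62 ± 0.0767 and GMPPA by 0.58 ± 0.0711, and with Dex in the panel YWHAG fell by 0.23 ± 0.0389. These contrasts use groups among the 19 by which the genes were picked, so the values repeat the likeness and are not separate results. This likeness describes the RNA levels of these groups only.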

How the data were processed

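Gene expression was measured by sequencing of polyA-enriched, strand-marked RNA in 43 libraries. Per the submitters' processing notes, STAR, RSEM and hg38 were used; the annotation release and the strand setting of the counting are not given in the sources used here. The deposited values used were expected counts per gene, rounded here to whole numbers (2.48 to 4.74% were not whole), and TPM. The authors' files give TPM per gene and library. They were used for the marker lists, for levels between genes and between the lines, and for the group means of ATF4 at 6 h. Per the file headers each file holds 59526 identifiers, of which 58780 are Ensembl genes, 58207 with a GENCODE 44 symbol, and the other 746 held 0 counts.

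The panel, pretreatment and HepG2 experiments were fitted separately with edgeR 4.0.16 in R 4.3.3 (filterByExpr, TMM, quasi-likelihood test) over all their groups, with 15775, 15183 and 13350 genes tested, 7, 12 and 2 residual degrees of freedom and Benjamini-Hochberg adjustment over all genes tested. Panel stimuli were compared with the 4 DMSO and PBS libraries together, so these contrasts share their controls, as do the IFNg and Dex contrasts within an arm. CPM are scaled by TMM. Replicates differed by more than sampling noise in every group (chi-square per degree of freedom at least 2.52 over genes with 20 or more counts).

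The members and lists were chosen with earlier results of these data known. The text names all members, up to 3 genes per list with the smallest adjusted p, and the 3 genes most like ASNS and HSPA5 (log2 of CPM plus 0.1, mean of at least 5 CPM). MARS1 at 1 h was named, after its value was seen, because it overlaps DDIT3. A listed gene that the rule would name is not reported here. Alternatives were DESeq2 1.42.0 (its size factors and its Wald test), no filter, only the compared groups, a replicate block, DMSO or PBS alone, and leaving out each library. Counts were simulated with genes changed 1.5-, 2- and 4-fold. For BRM014 with vehicle at 6 h the test recovered 56.9, 67.1 and 84.6% of them (14872 genes, 12 of 151 calls false). It recovered 58.2, 84.5 and 93.5% for HepG2 (13095 genes, 25 of 182 calls false). For Dex in the panel the shares were 58.7, 82.6 and 91.2% (15381 genes, 13 of 169 calls false). The Dex difference between arms at 6 h gave less, 35.4, 55.7 and 80% (14869 genes, 7 of 121 calls false). In each simulation, drawn once, the false share of calls was above the adjusted p threshold of 0.05, most of all for HepG2. Each fold was given to 62 to 71 genes, fewer in all than were called in the data. Depth limits precision, and intervals and limits cover counting error only.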

Additional observations from a re-analysis of the deposited data

Results flagged for a closer look

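The effect of Dex at 6 h differed between cells given BRM014 and cells given DMSO for HERPUD1, with a difference of -0.24 on the log2 scale by the interaction term. The effect of BRM014 in vehicle cells differed between 6 h and 1 h for ASNS by 0.56, for PSAT1 by 0.34 and for HERPUD1 by -0.19, by the test of the difference itself. The ASNS difference was called in every alternative run, and the other differences were each lost in several.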

How the results depend on the processing

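Over 52 called results for single members and 504 alternatives, the call was kept in 416, lost in 88 and reversed in 0, and 29 results were kept in all. No setting moved the median of all genes by more than 0.0465. The number of members called changed from 2 to 1 for IFNg in the panel with DESeq2 or with DMSO alone as control (0 to 2 when single libraries were left out), and from 3 to 1 for Dex in the panel against PBS alone. For BRM014 with vehicle at 1 h it changed from 2 to 1 without a filter, with DESeq2 or with only the compared groups (0 to 1 without single libraries). For IFNg after DMSO at 6 h it changed from 0 to 1 with DESeq2's size factors or its test (0 to 1 without single libraries). The Dex difference between arms at 6 h changed from 1 to 0 without a filter or with only the compared groups (0 to 1 without single libraries), and the BRM014 difference between 6 h and 1 h from 3 to 1 under either (1 to 4 without single libraries). Leaving out single libraries gave 1 to 2 for BRM014 with Dex at 1 h, 0 to 1 for Dex after DMSO at 1 h, 1 to 3 for Dex after DMSO at 6 h, 0 for Dex after BRM014 at 6 h, 0 to 1 for 6 h against 1 h after DMSO and 3 to 6 after BRM014. The cause was not tested.

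Whether replicate numbers pair the samples was checked by correlations of same-numbered deviations, which cannot exclude shared batches. They ran from -0.108 to 0.297 over 21 group pairs of the panel, 4 of them over 0.1. In the pretreatment experiment they ran from -0.3 to 0.351 over 66 pairs, 20 of them over 0.1. The value was -0.22 for the 1 pair of HepG2 groups. With the replicate block, 7 members in place of 8 were called for BRM014 with vehicle at 6 h and 6 in place of 7 with Dex, and no other number of members called changed. With the numbers crossed in HepG2, an alternative chosen after seeing the data, 7 members and 6866 genes in all were called, against 6 and 5617. HepG2 BRM014 replicate 2 was the shallowest library at 3.06 M counts, and recovery was not simulated by expression level, so the power for low genes such as CHAC1 was not tested.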
